A study of Mus musculus with 12 samples.

Results

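Promoter to promoter contacts are the interactions in which both ends lie at the start of a gene. Here they were taken from 6 tables of chromatin interactions in mouse ESCs and NCCs. An interaction was kept when both of its anchors were on the same autosome, lay 20 kb to 2 Mb apart (midpoint to midpoint), and each overlapped the transcription start site of a different protein-coding gene by 1 kb on either side. In Hi-C this left 151326 of the 10267665 interactions listed in ESC and 145031 of 10741787 in NCC. FGFR1 HiChIP held 21009 of 1930320 in ESC and 21223 of 2401031 in NCC, and CTCF HiChIP held 10325 of 887334 and 9720 of 847981. Promoter pairs were therefore 0.884% to 1.47% of all interactions of a table, and 1.86% to 2.96% of the autosomal interactions in the same span of distance. The rule uses only positions, so no read count chose the members.

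ESCs were E14Tg2A mouse embryonic stem cells kept on gelatin with 100 U/mL LIF, the cytokine that holds them in self-renewal. NCCs (neuronal committed cells) were the same line after 48 h of 1 uM retinoic acid without LIF. Hi-C joins DNA ends that are close in the fixed nucleus, and HiChIP enriches the same ligations with an antibody, here against FGFR1, a growth factor receptor that is also found in the nucleus, or CTCF, the zinc finger protein that halts loop extrusion. Each of the 6 combinations had 2 biological replicates, which the authors merged, so every value below comes from 1 pooled library and has no error between replicates. All intervals are 95% intervals of counting error only, and a test compares 2 pooled libraries of 1 cell line, not the conditions. In bulk cells, fewer cells with a contact and a rarer contact in each cell cannot be told apart. Contacts do not measure marker expression, so the cell type labels could not be checked here.

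A promoter holds the core site where RNA polymerase starts and the nearby elements that control it. Promoters meet each other in several known settings. Active genes gather near polymerase clusters, genes silenced by Polycomb, a repressor complex that sits at CpG-rich starts of developmental genes in ESCs, meet across long distances, and CTCF sites that point toward each other hold the ends of loops together. Hox genes and other homeobox and forkhead regulators are the classic Polycomb targets in ESCs, and retinoic acid is known to open the Hox clusters stepwise.

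The sequence letters most tied to such contacts are those of the CTCF consensus, because sites that face each other are known to pair at loops. The motif was searched as the 12-letter CTCF consensus on both strands of GRCm38 (mm10). It was present in 2.87% to 2.9% of all autosomal Hi-C anchors. Printed below are the 3 convergent promoter pairs at least 100 kb apart with most Hi-C read pairs, and the divergent pair with the highest expectation. The choice was among pairs with 1 site in each anchor, the same in both cell types. Pairs of 1 chromosome were left out of it and are not reported here. The printed pairs were chosen after their values were seen. Each line is a 30-base window, 5′ to 3′ on the strand of the motif, with the motif in capitals.
1600014C23Rik, chr17:45735624-45735653, plus strand: tctttctggCCAGCAGAGGGCgctgcccaa
Vegfa, chr17:46027814-46027843, minus strand: cctgcaggaCCAGCAGAGGGCcggctatag
Dnah2/Efnb3, chr11:69546867-69546896, plus strand: tgcacgggtCCAGCAGGTGGCgctcggggt
Cd68/Mpdu1, chr11:69657382-69657411, minus strand: accttctgcCCACTAGAGGGCactaaaacc
Celsr2, chr3:108401777-108401806, plus strand: cccttaaacCCAGTAGGTGGCagcactgac
Tmem167b, chr3:108563522-108563551, minus strand: ggttcacagCCAGCAGATGGCactgtagca
Cyc1, chr15:76344644-76344673, minus strand: agcacactcCCACCAGGTGGCggtacgcca
Scx, chr15:76468488-76468517, plus strand: agtcgctatCCACCAGAGGGCagcactgac

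In GENCODE, the first site is between genes, 1794 bp upstream of the start of 1600014C23Rik, and its partner is in an intron of Vegfa, the vascular growth factor gene. This pair, 289.6 kb apart, held 24 Hi-C read pairs in ESC and 30 in NCC, 3.60 and 3.93 times the expectation defined in the next paragraph. The sites at Dnah2 and Mpdu1 are in introns, and the pair held 25 and 10 read pairs, 0.995 and 0.826 times expectation. The site at Celsr2, an atypical cadherin gene, is in an intron, and the one at Tmem167b is 1070 bp upstream of its start. Their pair held 12 and 11 read pairs, 2.91 and 2.85 times expectation. The divergent sites are in a coding exon of Cyc1, a respiratory chain gene, and in an intron of Bop1 in the anchor of Scx, and this pair held 3 and 8 read pairs, 0.415 and 0.451 times expectation. The convergent pairs were picked for many read pairs and the divergent one for a high expectation, so their ratios do not compare the directions of sites. The pair of Dnah2 and Mpdu1 changed sides with the scale, at 1.3 and 1.24 when balanced.

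Contact falls with distance and rises with the number of read pairs that reach an anchor, so read pairs were divided by an expectation. It was the product of the totals of both anchors (read pairs to other anchors of the same chromosome) and a factor for each of 40 steps of distance. As a second form, the anchor totals were replaced by weights scaled until the expected and observed sums of each anchor matched. This is named balanced below. The form matters: promoter anchors had a median total of 188 read pairs in ESC Hi-C against 77 for other anchors (189 and 79 in NCC), and the product of totals gave promoter pairs a larger expectation than the balanced weights in all 6 libraries. For this reason sums over promoter pairs are given on both scales. The ratios of single pairs and of listed interactions are from the totals unless they are called balanced.

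From the totals, promoter pairs held fewer read pairs than expected in all 6 libraries, and with balanced weights they held more. In Hi-C, 411884 read pairs in ESC were 0.765 times the expectation (0.762 to 0.767), and 385997 in NCC were 0.776 times (0.774 to 0.779). The balanced values were 1.05 and 1.04. In FGFR1 HiChIP, 26888 read pairs in ESC and 26862 in NCC were 0.846 (0.835 to 0.856) and 0.931 (0.920 to 0.942) times expectation, and 1.08 and 1.07 when balanced. In CTCF HiChIP, 12127 and 11507 read pairs gave 0.780 (0.766 to 0.794) and 0.808 (0.793 to 0.823), and 1.06 in both when balanced. The 2 scales thus put promoter pairs on opposite sides of 1, and neither side is reported as a result. FGFR1 HiChIP had the highest value of each cell type on both scales, but balanced its 1.07 in NCC lay next to the 1.06 of CTCF HiChIP.

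The fall with distance held on both scales. In ESC Hi-C the ratio was 0.799 at 20 to 50 kb, 0.82 at 50 to 100 kb, 0.788 at 100 to 200 kb, 0.720 at 200 to 500 kb, 0.660 at 500 to 1000 kb and 0.715 at 1000 to 2000 kb. Balanced, the same classes were 1.13, 1.13, 1.07, 0.980, 0.906 and 0.972. Promoter pairs under 200 kb were thus the most frequent against their expectation, and the lowest class was 500 to 1000 kb in each of the 6 libraries on both scales. In that class, NCC Hi-C was 0.652 and 0.869 when balanced, FGFR1 HiChIP was 0.706 in ESC and 0.718 in NCC (0.903 and 0.821), and CTCF HiChIP was 0.628 and 0.643 (0.856 and 0.838). Pairs with 1 promoter anchor had the same fall in ESC Hi-C, from 0.886 at 20 to 50 kb to 0.768 at 500 to 1000 kb, and from 1.03 to 0.889 when balanced, so the fall is not particular to promoter pairs. Beyond 1000 kb the ratio of promoter pairs was higher again in all 6 libraries, between 0.705 and 0.831 from the totals and between 0.906 and 0.995 when balanced.

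**Figure D1:**
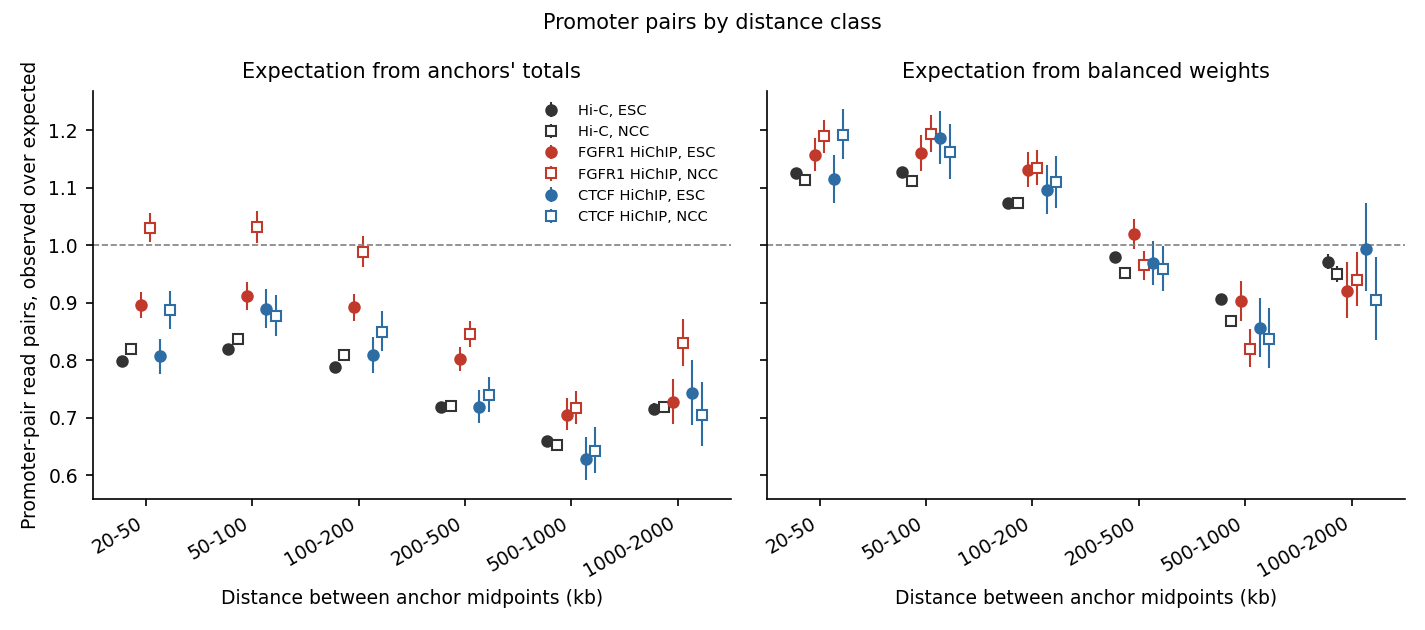
Read pairs of promoter pairs over expectation (vertical axis, no unit) in 6 classes of distance (horizontal axis, kb) for Hi-C (black), FGFR1 HiChIP (red) and CTCF HiChIP (blue), with ESC as filled circles, NCC as open squares and bars as 95% counting intervals. The left panel uses anchor totals and the right one balanced weights; in both, the class of 500 to 1000 kb is lowest in each library, at 0.660 and 0.906 in ESC Hi-C.

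The number of listed promoter pairs was compared with an expectation from totals only. In Hi-C, 22.8% of the 663726 possible promoter pairs were listed in ESC and 22.0% of 659078 in NCC. In FGFR1 HiChIP this was 5.68% and 5.28%, and in CTCF HiChIP 3.68% and 3.58%. In Hi-C, 54.9% of the listed promoter pairs in ESC and 56.1% in NCC had a single read pair, and in HiChIP this share was 81.0% to 86.5%. Against the number expected from the anchors' totals, the listed pairs were 0.796 and 0.80 in Hi-C, 0.840 and 0.910 in FGFR1 HiChIP, and 0.789 and 0.813 in CTCF HiChIP, in ESC and NCC.

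To ask whether promoters meet each other more often than they meet other DNA, the ratio of promoter pairs was divided by that of pairs with 1 promoter anchor. From the totals it was 0.908 (0.905 to 0.911) in ESC Hi-C and 0.905 (0.902 to 0.908) in NCC Hi-C, and balanced 1.08 (1.07 to 1.08) and 1.05 (1.05 to 1.06). CTCF HiChIP followed the same split, with 0.929 and 0.945 from the totals and 1.07 and 1.08 when balanced. In FGFR1 HiChIP the totals gave 0.997 (0.984 to 1.01) in ESC and 1.04 (1.03 to 1.06) in NCC, and balanced weights 1.10 and 1.09. The preference for another promoter therefore had no settled direction in Hi-C and CTCF HiChIP. In FGFR1 HiChIP of NCC the sum over distances was above 1 on both scales, but at 500 to 1000 kb it was 0.925 (0.887 to 0.965) and, balanced, 0.974.

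Promoters also differed in how many partners they had. In Hi-C, the median gene met 13 promoter anchors of other genes in both cell types, with quartiles of 7 and 24 in ESC and 6 and 23 in NCC. These were a median of 26.3% and 25.2% of the promoter anchors within reach. The gene with the most partners was Nfic, a nuclear factor I transcription factor, with 114 partner anchors of 159 within reach in ESC and 108 of 155 in NCC. All 10 genes with the most partners in ESC were on chromosome 10, among them Mbd3, a subunit of the NuRD remodeler, Stk11, the kinase LKB1, and Grin3b, a glutamate receptor subunit, each with 103 partners in ESC and 101, 97 and 89 in NCC. Their read pairs stood at 0.408 (Nfic), 0.402 (Mbd3), 0.490 (Stk11) and 0.491 (Grin3b) times the expectation from totals, and at 0.917, 1.03, 1.11 and 1.09 times the balanced one. Many partners therefore did not go with a high ratio over expectation in these genes. Among the 19 autosomes, chromosome 10 had the lowest ratio from totals in ESC Hi-C at 0.555 and chromosome 14 the highest at 1.28, while balanced ratios ran only from 1.03 to 1.11.

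The question of the study, how contacts change as ESCs become NCCs, was put to the sum of all promoter pairs first. In Hi-C, the log2 of NCC over ESC was 0.02 (0.02 to 0.03) from the totals and -0.02 (-0.03 to -0.02) when balanced. In CTCF HiChIP it was 0.05 (0.01 to 0.09) and 0.01 (-0.03 to 0.04). In FGFR1 HiChIP it was 0.14 (0.11 to 0.16) from the totals and -0.01 (-0.04 to 0.01) when balanced. From the totals, 10 of the 19 autosomes were higher in NCC in Hi-C, 16 in FGFR1 HiChIP and 13 in CTCF HiChIP, and balanced the numbers were 1, 6 and 9. No direction of the sum was shared by both scales in Hi-C or FGFR1 HiChIP, and in CTCF HiChIP the balanced interval included 0. The share of the autosomal read pairs of 20 kb to 2 Mb that lay in promoter pairs went from 4.78% to 4.47% in Hi-C, from 2.51% to 2.10% in FGFR1 HiChIP and from 2.76% to 2.81% in CTCF HiChIP.

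By distance, the difference was lowest at 500 to 1000 kb in both Hi-C and FGFR1 HiChIP. At 500 to 1000 kb the Hi-C values were -0.02 (-0.04 to 0.01) and, balanced, -0.06 (-0.08 to -0.04), against 0.04 and -0.02 at 20 to 50 kb. In FGFR1 HiChIP they were 0.02 (-0.06 to 0.11) and -0.14 (-0.22 to -0.06), against 0.20 and 0.04 at 20 to 50 kb and 0.19 (0.09 to 0.29) and 0.03 (-0.07 to 0.14) at 1000 to 2000 kb. In CTCF HiChIP at 20 to 50 kb the intervals lay above 0 on both scales, at 0.14 (0.06 to 0.21) and 0.10 (0.02 to 0.17). In every other class of CTCF HiChIP they included 0 on both scales.

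**Figure D2:**
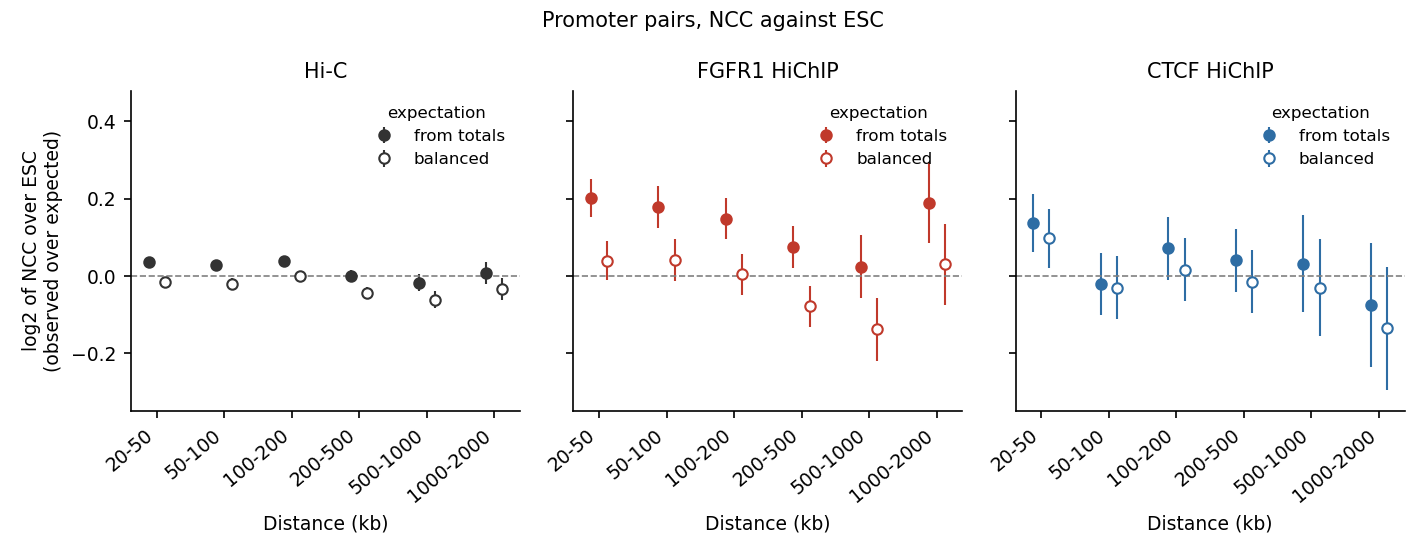
The log2 of NCC over ESC of promoter pairs over expectation (vertical axis) by class of distance (horizontal axis, kb) in Hi-C, FGFR1 HiChIP and CTCF HiChIP, with filled points for the expectation from totals, open points for balanced weights and bars for 95% counting intervals. The open points lie below the filled ones in all 3 assays, and in FGFR1 HiChIP the values are 0.02 and -0.14 at 500 to 1000 kb and 0.19 and 0.03 at 1000 to 2000 kb.

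Most promoter pairs seen often in one cell type were seen in the other. Anchors of both cell types were merged into shared loci, and a locus counted as a promoter where any part of it met the start-site rule. Read pairs of a locus can thus come from anchors that do not meet the rule themselves. The limit of 20 kb was set on the midpoints of loci, and so was the distance of the expectation. A pair of wide loci can therefore also hold read pairs between anchors less than 20 kb apart. Of the Hi-C promoter pairs of ESC, 54.5% were listed in NCC, and 57.1% of those of NCC in ESC. Among pairs with at least 5 read pairs the shares were 95.7% and 96.4%, and with at least 10 they were 99.3% and 99.4%. In FGFR1 HiChIP 21.5% and 21.8% were shared, and in CTCF HiChIP 15.5% and 16.5%. With at least 5 read pairs these were 72.9% and 71.6% in FGFR1 HiChIP, and 63.3% and 74.2% in CTCF HiChIP. Within a cell type, 67.3% of the FGFR1 and 69.7% of the CTCF promoter pairs of ESC were also listed in Hi-C, and 62.6% and 67.8% of those of NCC. These shares were not computed over all pairs, so they are not reported as a trait of promoter pairs.

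Each pair of loci with at least 10 read pairs in both libraries together was then tested by a two-sided exact binomial test against the share that both expectations give, with Benjamini-Hochberg adjustment over all locus pairs of the assay. In Hi-C, 204812 locus pairs were tested, of which 3 (0.00146%) were higher and 4 (0.00195%) lower in NCC. Of these, 20742 were promoter pairs, 10.1% of the tested pairs, and 2 were higher and 4 lower, so 6 of the 7 calls joined promoters. At an unadjusted p under 0.05, there were 8996 pairs among all and 1036 among promoter pairs, and the median log2 of NCC over ESC was 0.03 among all and 0.04 among promoter pairs. In FGFR1 HiChIP 619 pairs were tested, 77 of them promoter pairs, and in CTCF HiChIP 66 and 6. The exact binomial test called 0 in either (0% of the tested pairs), with 29 pairs (2 of promoters) and 2 pairs (1 of promoters) at an unadjusted p under 0.05. Depth limits these counts: in libraries simulated at the same depth, 4-fold changes were found for 5% of changed Hi-C pairs and 2-fold changes for 0%.

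The 4 promoter pairs that fell in NCC all joined regulators of embryonic patterning. On chromosome 8, the locus of Foxf1 (121082300 to 121085943), a forkhead factor of the lateral mesoderm, and that of Foxc2 (121114381 to 121118264), a forkhead factor of paraxial and vascular mesoderm, held 33 read pairs in ESC and 2 in NCC. This was 1.46 times expectation in ESC and 0.10 times in NCC (exact binomial test, adjusted p = 0.0104). Foxf1 and Foxl1 (121124217 to 121130300), the third forkhead gene of this cluster, 43.1 kb apart, held 26 and 2 read pairs, or 1.21 and 0.0832 times expectation (exact binomial test, adjusted p = 0.0199). Both pairs share the Foxf1 locus, whose total was 449 read pairs in ESC and 382 in NCC, while the totals were 525 and 557 for Foxc2 and 620 and 837 for Foxl1. The contact of Foxf1 with both neighbours thus went from above to below an expectation that takes these totals in.

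On chromosome 17, Six3 (85614286 to 85627000), a homeobox gene of forebrain and eye, and Six2 (85684985 to 85694903), which keeps nephron progenitors, held 116 read pairs in ESC and 28 in NCC, 69.3 kb apart. Over expectation this was 3.40 and 1.27, a ratio of 0.372 (0.237 to 0.566, exact binomial test, adjusted p = 0.0210). On chromosome 11, a locus with Hoxb7 and Hoxb8 (96281897 to 96289483) and one with Hoxb2 and Hoxb3 (96343553 to 96359771), 66.0 kb apart, held 61 and 14 read pairs, or 1.95 and 0.527 times expectation (exact binomial test, adjusted p = 0.0382). All 4 pairs stayed lower with the balanced expectation, at adjusted p from 0.00105 to 0.0167. For these genes the CpG class was taken at 1 start per gene. CpG-rich meant at least 50% GC and an observed over expected CpG above 0.6 in 500 bp on either side of that start. Foxf1, Foxc2, Foxl1, Six3, Six2 and Hoxb7 were CpG-rich, as were 45.7% of all gene starts, and Hoxb8, Hoxb2 and Hoxb3 were not. A gene can have several starts, as Hoxb3 does, so its class may not be that of the start in the called locus.

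The 2 pairs that rose in NCC were on chromosome 7. The locus of 2200002D01Rik (29242879 to 29273289) and that of Ppp1r14a (29287527 to 29295811), an inhibitor of myosin phosphatase, were 33.6 kb apart between midpoints. They held 76 read pairs in ESC and 116 in NCC, or 0.578 and 1.31 times expectation (exact binomial test, adjusted p = 0.00238). The facing edges of these loci are closer than the lower limit of distance, which was set on midpoints. Read pairs between anchors below that limit can thus be among those counted, at the expectation of the midpoint distance. A locus with Cd151, a tetraspanin gene, Cracr2b, Polr2l and Tspan4 (141457251 to 141478576) and that of Muc6, a gastric mucin gene (141636798 to 141676531), 188.8 kb apart, held 34 and 74 read pairs, or 0.515 and 1.34 times expectation (exact binomial test, adjusted p = 0.0457). Neither was called with the balanced expectation, under which both had an adjusted p of 1, nor with libraries scaled to their totals, at adjusted p of 0.211 and 0.0516. Of the 6 calls, 3 were at least 50 kb apart, and in a test of such pairs alone their adjusted p was 0.0561 to 0.0571, so none passed.

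The same direction ran through a list of developmental regulators, transcription factor families and Bmp genes of the kinds that Polycomb marks in ESCs (Fox, Tbx, Lhx, Nkx, Pax, Irx, Dlx, Gata and other families, 146 genes by name, of which 58 had a pair, Hox genes not included). Hi-C read pairs between promoters of 2 listed genes were 492 in ESC and 155 in NCC. Over expectation they went from 2.42 to 0.826, a ratio of 0.341 (0.283 to 0.409), and 0.324 when balanced. Without the 3 called pairs of this list, loci gave 385 and 132 read pairs and a ratio of 0.399 (0.325 to 0.487). Of 52 locus pairs in the list with a read pair in either library, 44 were lower over expectation in NCC, against 110742 of 219042 over all promoter pairs. Of the 21 with enough read pairs for the test, 3 passed as lower and 0 as higher, 20 had a log2 below 0, and the median log2 was -1.74, against 0.04 over all tested promoter pairs. A pair frequent in only 1 cell type can reach the minimum of 10 read pairs through that cell type alone, so these counts describe the pairs that passed, while the sums between anchors take in every possible pair of the list.

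Pairs of 1 listed gene with a promoter outside the list were closer to level, with intervals below 1 on both scales. They held 6217 read pairs in ESC and 5326 in NCC, 0.828 and 0.796 times expectation. The ratio was 0.962 (0.927 to 0.998), and 0.927 (0.894 to 0.962) when balanced. Of 301 tested pairs 0 passed, with a median log2 of 0.02. The totals of the 178 listed loci had a median log2 of NCC over ESC of -0.06, against -0.00 for all 20551 promoter loci. Contacts among the listed promoters were thus lower in NCC, while the read pairs that reached these promoters in all were close to level.

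Among forkhead genes, Foxf2 and Foxc1 on chromosome 13, 174.0 kb apart, held 21 read pairs in ESC and 1 in NCC, or 2.85 and 0.197 times expectation, with an adjusted p of 0.632. Foxq1 and Foxf2, 69.8 kb apart, held 19 and 5 read pairs, or 3.99 and 1.79 times (2.21 and 0.892 balanced). Thus the chromosome 13 cluster of forkhead genes had the direction of the chromosome 8 cluster, without passing the test.

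Among homeobox genes of the neural tube and gut, Gsx1, a factor of ventral forebrain progenitors, and Cdx2, the caudal and trophectoderm factor, 114.4 kb apart on chromosome 5, held 30 and 5 read pairs, or 2.60 and 0.650 times expectation. Nkx2-1, of ventral forebrain, lung and thyroid, and Pax9, of pharyngeal pouches, 159.4 kb apart on chromosome 12, held 18 and 2 read pairs, or 13.4 and 2.24 times. In FGFR1 HiChIP, the same pair held 5 read pairs in ESC and 0 in NCC. Balanced, the ratios were 2.69 and 0.633 for Gsx1 and Cdx2, and 4.91 and 0.90 for Nkx2-1 and Pax9.

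The longest of these contacts spanned 557.2 to 860.1 kb. On chromosome 2, Nkx2-2, of ventral spinal cord, and Foxa2, of floor plate and endoderm, 860.1 kb apart, held 10 read pairs in ESC and 1 in NCC, or 32.4 and 4.94 times expectation. Pax1, of the sclerotome, and Foxa2, 675.7 kb apart, held 11 and 2, or 27.1 and 6.80 times. On chromosome 5, the limb and heart factor Tbx5 and the homeobox gene Lhx5, 594.6 kb apart, held 10 and 0 read pairs, and Tbx3 and Lhx5, 755.2 kb apart, held 11 and 2, or 6.16 and 1.26 times. The homeobox genes Irx3 and Irx5, 557.2 kb apart on chromosome 8, held 29 and 16 read pairs, or 22.2 and 13.0 times, and Irx1 and Irx2, 667.7 kb apart on chromosome 13, held 15 and 9, or 26.1 and 13.6 times. Balanced, the ratios of these long contacts were smaller on chromosomes 2, 8 and 13, with 17.3 and 2.74 for Nkx2-2 and Foxa2, 14.1 and 3.78 for Pax1 and Foxa2, 11.9 and 5.36 for Irx3 and Irx5, and 15.1 and 6.12 for Irx1 and Irx2. On both scales the Irx pairs had fewer read pairs over expectation in NCC than in ESC and stayed above 1 there.

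Tbx2 and Tbx4, 54.9 kb apart on chromosome 11, held 27 and 10 read pairs, or 1.10 and 0.417 times expectation. Dlx3 and Dlx4, neighbours at 23.0 kb on chromosome 11, were the exception among the 21 tested pairs, with 20 read pairs in ESC and 31 in NCC, or 0.614 and 1.03 times. Of the 21 tested pairs, those other than the 3 called ones did not pass the test, and several share a promoter, so they are not independent of each other.

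**Figure D3:**
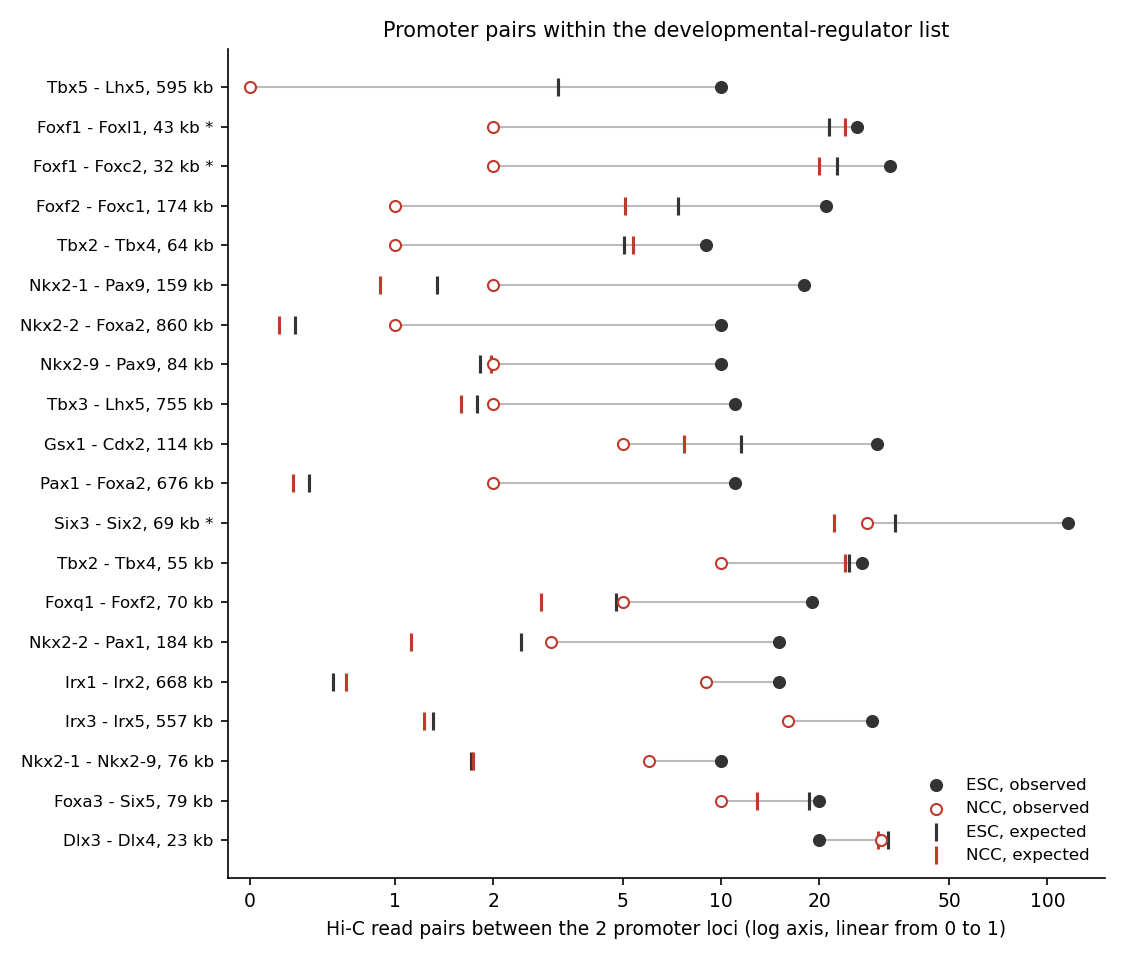
Hi-C read pairs (horizontal axis, log scale above 1) of 20 of the 21 tested promoter pairs within the developmental-regulator list, ordered by log2 of NCC over ESC, with ESC as filled black circles, NCC as open red circles, vertical ticks for the expectation from totals and a star for an adjusted p under 0.05. Tbx2 and Tbx4 have 2 rows because 2 pairs of loci carry these promoters, Tbx5 and Lhx5 have no NCC tick because their NCC ratio is 0, and NCC lies to the left of ESC in all pairs but Dlx3 and Dlx4.

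HiChIP showed the same direction in this list at low depth. In FGFR1 HiChIP, pairs within the list held 27 read pairs in ESC and 6 in NCC, or 3.42 and 0.745 times expectation, a ratio of 0.218 (0.0736 to 0.539). In CTCF HiChIP they held 16 and 0, with an upper limit of the ratio of 0.382. Over merged loci, FGFR1 HiChIP held 14 and 5 read pairs, a ratio of 0.303 (0.0853 to 0.889), and CTCF HiChIP 12 and 0, with an upper limit of 0.724. Pairs with 1 listed gene had intervals that included 1, at 1.12 (0.954 to 1.32) in FGFR1 HiChIP and 0.968 (0.754 to 1.24) in CTCF HiChIP. The 3 assays thus had intervals below 1 within the list.

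Hox promoters, 38 of 39 genes with a pair, were also lower in NCC, with ratios closer to 1; the difference from the list above was not tested. Within the clusters, Hi-C read pairs went from 1388 to 869, or from 1.01 to 0.640 times expectation, a ratio of 0.633 (0.581 to 0.690). Of 68 tested pairs, 54 had a log2 below 0 and 1 passed, with a median of -0.63. As in the list above, a pair can reach the minimum of read pairs for the test through ESC alone. Of all Hox locus pairs with a Hi-C read pair in either library, 73 of 95 were lower over expectation in NCC. Over all promoter pairs this was 110742 of 219042. In FGFR1 HiChIP, 122 and 52 read pairs gave a ratio of 0.448 (0.317 to 0.624), and in CTCF HiChIP 31 and 29 gave 0.668 (0.388 to 1.15). Over merged loci, CTCF HiChIP gave 29 and 17 read pairs and 0.447 (0.230 to 0.840). In the HoxC cluster, the locus of Hoxc10 and Hoxc11 and that of Hoxc8 and Hoxc9, 20.8 kb apart, held 189 and 89 read pairs, or 1.11 and 0.664 times expectation. The Hoxc10 and Hoxc11 locus and that of Hoxc5 and Hoxc6, 51.2 kb apart, held 69 and 22, or 1.65 and 0.630 times. In Hi-C, pairs of a Hox gene with a gene outside the clusters had a ratio of 1.09 (1.00 to 1.19), and the median log2 of the 49 tested pairs was 0.35.

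**Figure D4:**
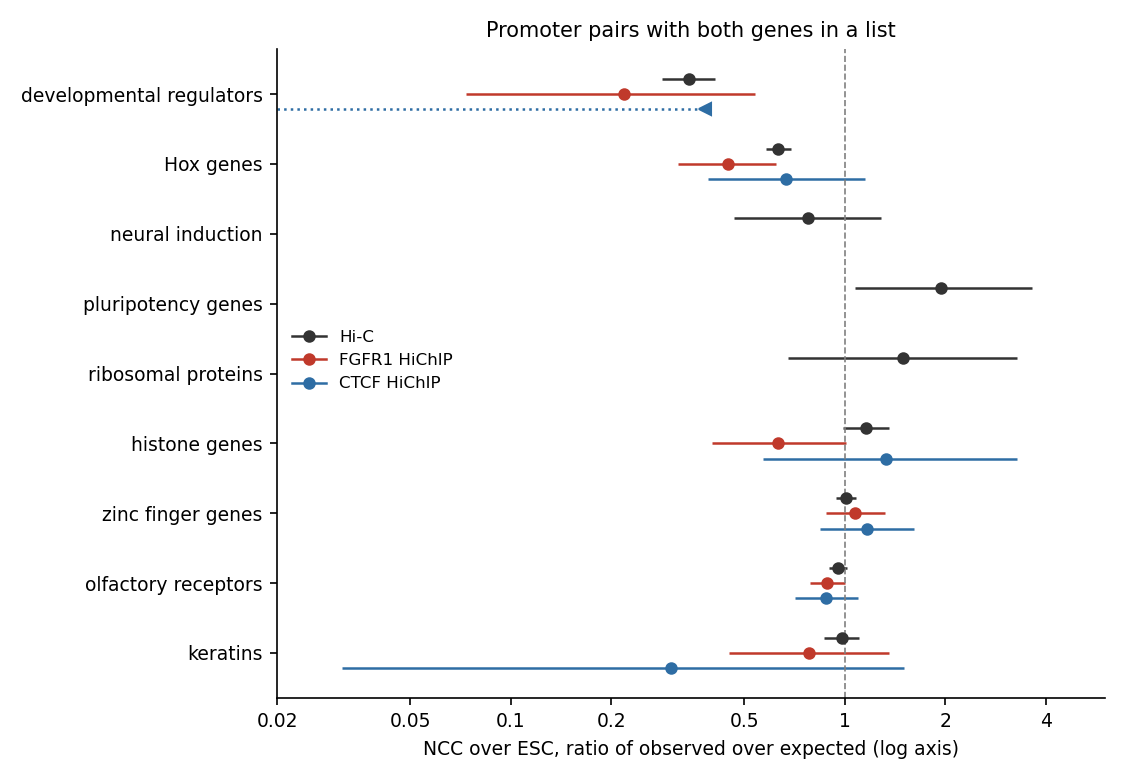
Ratio of NCC over ESC of read pairs over expectation from totals (horizontal axis, log scale) for promoter pairs with both genes in a list, in Hi-C (black), FGFR1 HiChIP (red) and CTCF HiChIP (blue), with 95% counting intervals; sums under 10 read pairs are left out and the arrowhead marks an upper limit where NCC held 0. Developmental regulators lie lowest in Hi-C, at 0.341, Hox genes follow at 0.633, pluripotency genes lie above 1 at 1.94 (1.02 over merged loci), and the Hi-C intervals of the other lists include 1.

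Other gene families had ratios near 1. Histone genes, whose clusters meet in the histone locus body, held 349 and 287 Hi-C read pairs, or 2.57 and 2.98 times expectation, with a ratio of 1.16 (0.986 to 1.36). Zinc finger genes held 1683 and 1423, or 1.48 and 1.49 times, with a ratio of 1.01 (0.939 to 1.08), though 1.09 (1.02 to 1.17) over merged loci. Olfactory receptor genes held 2440 and 1968, or 3.0 and 2.87 times, and keratin genes 479 and 706, or 1.09 and 1.07 times. Of their 24, 83, 28 and 35 tested pairs, 0 passed the exact binomial test. Olfactory receptor promoters were over expectation mainly on the scale of totals, since balanced they were 1.17 and 1.21. Histone promoters were over expectation on both scales, with 1.98 and 2.11 when balanced.

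Genes of the differentiation itself had few pairs in reach of each other. Neural induction genes had 2 such pairs, Irx3 with Irx5 (above) and Olig2 with Olig1, the helix-loop-helix genes of oligodendrocytes, which held 22 and 12 read pairs, or 2.36 and 1.62 times expectation. Retinoic acid genes had 3 and 0 read pairs in all, and ribosomal protein genes 16 and 14. Pluripotency genes gave different sums by the way anchors were matched. Between the promoter anchors of each library they held 18 and 35 read pairs, a ratio of 1.94 (1.07 to 3.64). Between merged loci, which also take in anchors without a start site, they held 74 and 47, a ratio of 1.02 (0.694 to 1.49). Lefty2 and Lefty1, inhibitors of Nodal, 40.8 kb apart, held 30 and 24 read pairs between merged loci, or 1.15 and 1.21 times. Between their promoter anchors alone they held 7 and 24, or 0.547 and 1.21 times. Also between merged loci, Dppa4 and Dppa2, neighbours expressed in ESCs, held 18 and 6, or 3.29 and 2.40 times. Gdf3 and Nanog, 98.6 kb apart, held 9 and 7 on the same count, or 0.898 and 1.03 times. The loci of the pluripotency list had a median log2 total of -0.29 in Hi-C, lower than that of all promoter loci, and 0 of the 4 tested pairs passed the exact binomial test.

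Beyond these lists, some pairs at 100 kb or more stood out by their number of read pairs. On chromosome 10, the locus of Cnn2 and Grin3b and that of Atp5d and Cbarp, 149.2 kb apart, held 132 read pairs in ESC and 122 in NCC, or 1.45 and 1.81 times expectation. Fadd, an adaptor of death receptors, and Ano1, a chloride channel gene, 171.7 kb apart on chromosome 7, held 90 and 154, or 2.99 and 3.84 times, and Slc35b1 and Nxph3 on chromosome 11 held 30 and 60, or 1.67 and 3.76 times. The adjusted p of the last was 0.632 and that of the others 1, so none passed the test. These are values of merged loci. Between promoter anchors alone, the chromosome 10 pair held 99 read pairs in ESC and 122 in NCC. On that count Fadd and Ano1 held 10 and 132, or 2.10 and 3.93 times expectation. Slc35b1 and Nxph3 held 11 and 60, or 1.52 and 3.76 times.

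Some of the highest ratios at 100 kb or more were between copies of a gene, though most of the top-ranked pairs were not. Catsperg1 and Catsperg2, sperm ion channel subunits 511.6 kb apart on chromosome 7, held 20 and 14 read pairs, or 32.8 and 47.3 times expectation. Raet1e and Raet1d, ligands of a natural killer receptor on chromosome 10, held 9 and 40, or 21.0 and 33.8 times, and balanced between single anchors the ratios were 5.51 and 11.7. Such near-identical genes can share reads, and the part of this in their ratio was not tested. Without near copies, Mertk, a receptor kinase, and Tmem87b on chromosome 2 held 19 and 25, or 8.23 and 12.1 times, and En2 and Shh, a patterning pair 298.2 kb apart on chromosome 5, held 20 and 3, or 8.87 and 1.92 times (exact binomial test, adjusted p = 1). Mertk and Tmem87b also held 8 read pairs in FGFR1 HiChIP and 4 in CTCF HiChIP of NCC, among the most at this distance in both.

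Promoter pairs of genes with the same name stem (letters before the number, as in Six2 and Six3) exceeded those of other genes. In Hi-C the ratio of both classes was 1.81 (1.78 to 1.84) in ESC and 1.69 (1.66 to 1.72) in NCC, and 1.15 and 1.12 when balanced. At 200 to 2000 kb it was 2.94 and 2.78, and 1.5 and 1.59 when balanced. FGFR1 and CTCF HiChIP gave 1.63 to 2.0 over all distances, and 1.09 to 1.21 when balanced, where the interval of NCC CTCF HiChIP (0.996 to 1.2) included 1. At 20 to 200 kb the balanced ratio was 1.06 and 1.02 in Hi-C and 0.921 (0.868 to 0.976) in FGFR1 HiChIP of NCC. An excess of pairs with the same name stem on both scales was therefore seen at 200 to 2000 kb, in all 6 libraries, and not at shorter distances in each of them. A stem is only a rough stand-in for a gene family. It joins any genes that share a prefix, and it parts Foxf1 from Foxc2. Near copies within a stem can share reads, and the part of this in the ratios was not tested.

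The direction of CTCF sites ordered the promoter pairs within Hi-C. Pairs with the consensus in both anchors in convergent direction had 1262 read pairs in ESC and 1030 in NCC, 0.855 and 0.909 times expectation (1.23 and 1.21 balanced). Tandem pairs had 0.751 and 0.783 (1.04 and 0.968), and divergent pairs 0.621 and 0.704 (0.890 and 0.888). Convergent over divergent was 1.38 (1.27 to 1.5) in ESC and 1.29 (1.18 to 1.41) in NCC, and 1.39 and 1.36 when balanced. At 200 to 2000 kb it was 1.45 (1.22 to 1.72) and 1.27 (1.05 to 1.53), and balanced in NCC 1.19 (0.988 to 1.43), an interval that includes 1. Against pairs with no consensus, convergent ones were 1.11 and 1.17 over all distances, but 0.923 (0.829 to 1.03) and 0.969 (0.860 to 1.09) at 200 to 2000 kb. In CTCF HiChIP, convergent and divergent pairs had 16 and 11 read pairs in ESC and 24 and 14 in NCC, with ratios of 2.09 (0.913 to 4.99) and 1.64 (0.812 to 3.42), so the order was not detectable at that depth.

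CpG content made a smaller difference. Pairs of 2 CpG-rich promoters stood at 0.807 and 0.813 times expectation in Hi-C, mixed pairs at 0.732 and 0.743, and pairs of 2 CpG-poor ones at 0.780 and 0.802. The ratio of CpG-rich pairs to mixed pairs was 1.10 in both cell types, 1.12 and 1.15 in FGFR1 HiChIP and 1.12 and 1.11 in CTCF HiChIP, and 1.08 to 1.13 in the 6 libraries when balanced. The direction in which the genes are read made almost no difference in Hi-C, with convergent over divergent genes at 1.01 and 1.02, and 1.04 in both when balanced.

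**Figure D5:**
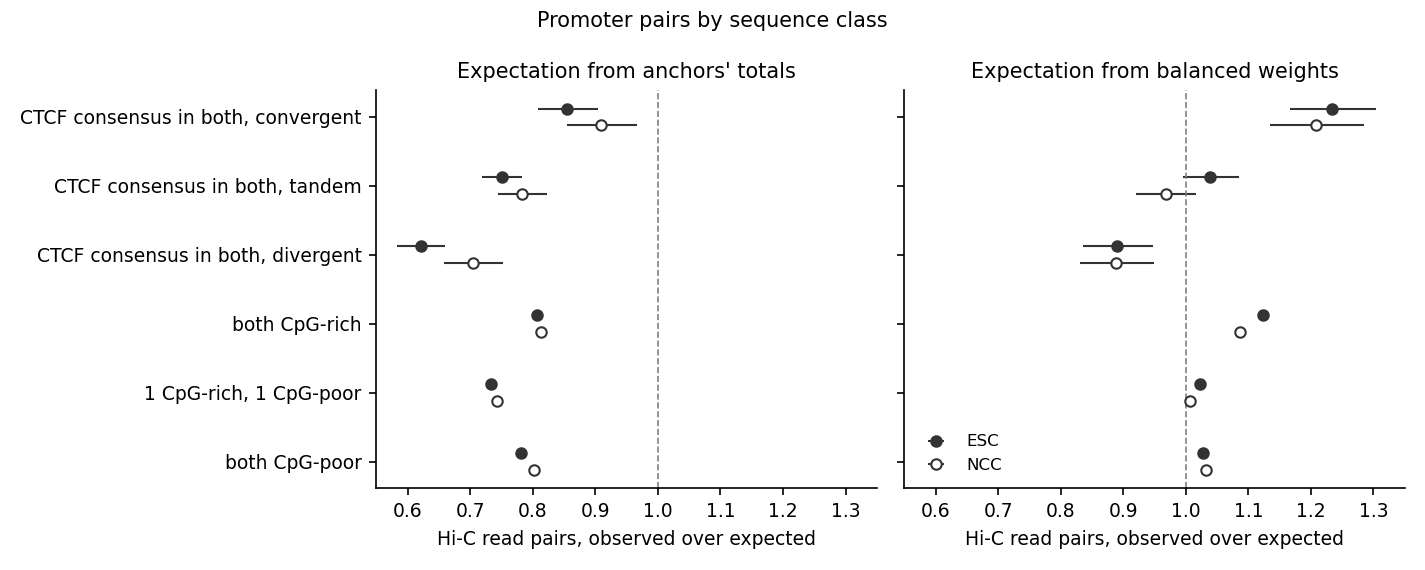
Hi-C read pairs of promoter pairs over expectation (horizontal axis) by direction of the CTCF consensus in both anchors and by CpG class of both promoters, with ESC filled, NCC open and bars as 95% counting intervals, from totals on the left and from balanced weights on the right. On both sides convergent sites lie right of divergent ones (0.855 against 0.621 in ESC from totals, 1.23 against 0.890 balanced), and pairs of 2 CpG-rich promoters lie right of mixed pairs.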

How the data were processed

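Deposited values were counts of read pairs per interaction. The authors aligned reads to mm10 and filtered them with HiC-Pro, called anchors and interactions with hichipper at default settings, without a q filter, and merged 2 replicates per library (12 samples, 6 tables). Versions are not given in the sources used here. Tables held 1065662 to 21279750 read pairs between anchors with median lengths of 2216 to 2923 bp. Removal of duplicate reads was part of the HiC-Pro step. The replicates were merged in the deposited tables, so intervals cover counting error only.

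Promoters were start sites of 20807 autosomal protein-coding GENCODE genes. Expectations used 40 log steps of distance, and balanced weights 50 rounds of scaling. Loci were anchors of ESC and NCC merged where they overlap, with 0.5 read pair added per library in a log2 ratio. The exact binomial test was tested on simulated data. Python 3.11.15, NumPy 2.4.6, pandas 2.3.3, SciPy 1.17.1, numba 0.67.0 and matplotlib 3.10.9 were used. Named were, per library, the 5 pairs at 100 kb or more with most read pairs and the 5 with the highest ratio (at least 20 read pairs), called pairs, the 5 Hi-C pairs with most read pairs per list, and the 10 genes with most partners per Hi-C library. Of these, some are given, and a few pairs are not reported here. Other tested pairs of lists, and the CTCF sites, were named after their values were seen. Members and lists were chosen with earlier results of these data known.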

Additional observations from a re-analysis of the deposited data

How the results depend on the processing

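Read pairs over expectation were below 1 in all 6 libraries under each alternative but balanced weights, which gave (ESC and NCC) 1.05 and 1.04 in Hi-C, 1.08 and 1.07 in FGFR1 HiChIP and 1.06 and 1.06 in CTCF HiChIP. In the same order, totals with all read-pair ends gave 0.697, 0.711, 0.766, 0.802, 0.737 and 0.745, 1 start site per gene 0.795, 0.807, 0.881, 0.971, 0.807 and 0.844, and a score of at least 2 gave 0.786, 0.814, 0.893, 0.957, 0.80 and 0.828. Without pairs of the same name stem the first 5 were 0.754, 0.767, 0.827, 0.908 and 0.762, and with the start inside the anchor 0.770, 0.783, 0.861, 0.947 and 0.799. The log2 of NCC over ESC was -0.0227, -0.0139 and 0.00639 with balanced weights in Hi-C, FGFR1 and CTCF HiChIP, 0.0496 in Hi-C and 0.0993 in FGFR1 HiChIP at a score of at least 2, and 0.0676 in FGFR1 HiChIP with all ends. Promoter pairs over pairs with 1 promoter, balanced (an alternative chosen after seeing the data, as were merged loci and the limit of 50 kb), were 1.08 and 1.05 in Hi-C, 1.10 and 1.09 in FGFR1 HiChIP and 1.07 and 1.08 in CTCF HiChIP. Hi-C calls were 20 higher and 43 lower with scaling to library totals, 0 higher with balanced weights, 0 and 0 at 50 kb or more, where fewer pairs are tested, 2 lower without the same name stem, and 1865 and 1719 by a 2-fold rule with no test, which gave 12 and 4 in FGFR1 HiChIP and 2 higher in CTCF HiChIP. Merged loci moved the pluripotency ratio to 1.02 and that of zinc finger genes to 1.09. The causes of these differences were not tested.

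No paired analysis was possible because the tables merge both replicates, and for the same reason no replicate was left out. The test over loci with an anchor in 1 library only was not run, since such a locus has no expectation in the other library.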
